A study of Mus musculus with 12 samples.

Results

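NRF2, its repressor KEAP1 and 8 genes that NRF2 drives were followed in the livers of septic mice. The 10 genes were chosen by name: Nfe2l2, which encodes NRF2, Keap1, Gclc, Gclm, Gsr, Nqo1, Hmox1, Txnrd1, Srxn1 and Slc7a11. They are 10 of the 25611 genes in the count table, and 9 of them are among the 13190 genes with enough reads for the fit across genes. Slc7a11 was too low in most livers and is described on its own.

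Polyadenylated RNA was measured in whole livers of 12 male C57BL6J mice aged 8 to 10 weeks, 4 in each of 3 groups. Sham mice were operated on without ligation, and CLP mice had cecal ligation and puncture, an abdominal sepsis model in which gut bacteria leak from the punctured cecum. CLP+DCA mice had the same puncture and then dichloroacetate, an inhibitor of the pyruvate dehydrogenase kinases, given into the peritoneum at 25 mg/kg. Injections were given 24 h after surgery in every group and livers were taken 6 h later, at 30 h, but what sham and CLP mice were injected with is not given in the sources used here. There was no sham group with DCA, so an effect of DCA outside sepsis was not measured.

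NRF2 is a transcription factor that turns on genes for glutathione synthesis, quinone detoxification and thiol reduction. In unstressed cells KEAP1 holds it in the cytoplasm and hands it to a ubiquitin ligase for degradation. Oxidants and electrophiles modify cysteines of KEAP1, NRF2 then escapes degradation, enters the nucleus and binds antioxidant response elements together with small MAF proteins. In the liver this pathway contributes to glutathione synthesis and to the handling of reactive drugs. Because NRF2 is controlled mainly as a protein, the level of Nfe2l2 mRNA is not a measure of its activity.

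The core of the antioxidant response element can be written TGACNNNGC, where N is any base. It was searched on both strands in the stretches from 250 bases before to 50 bases after each RefSeq transcript start (GRCm38.p6). Promoters of 7 of the 10 genes were at hand. The motif was found for 4 of them, Nfe2l2, Gclm, Txnrd1 (at 1 of its 3 starts) and Srxn1, and not in the windows of Keap1, Nqo1 and Slc7a11. Of all 32851 promoters in the table, 4071 (12.4%) hold it, a share counted by promoter and not by gene. The 4 windows are shown because they carry the letters through which NRF2 is known to act. The motif is in capitals and each sequence is read along the strand of its gene.
Nfe2l2: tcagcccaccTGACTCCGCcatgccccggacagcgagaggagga
Gclm: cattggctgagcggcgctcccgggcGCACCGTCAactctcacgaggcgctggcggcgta
Txnrd1: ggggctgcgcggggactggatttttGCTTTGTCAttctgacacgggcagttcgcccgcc
Srxn1: gcagtgggcaGCTAGGTCAgagtgagaca
The Nfe2l2 window lies at chr2:75704870-75704913, on the minus strand, and its motif runs from base -240 to -232 before the start. The Gclm window lies at chr3:122245398-122245456 with the motif at -134 to -126. The Txnrd1 window lies at chr10:82859089-82859147 with the motif at -92 to -84 of a start within the span of the gene. The Srxn1 window lies at chr2:152105542-152105570 with the motif 28 to 36 bases after the start. The last 3 motifs are on the strand opposite to the gene. A match is a description of the letters and not a measured binding site.

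Libraries held 24436513 to 44266819 reads assigned to genes (median 30005989). No pair of libraries was identical. CLP+DCA replicate 3 stood apart: its mean correlation with its own group was 0.926, against 0.965 to 0.99 for the other 11 libraries. Its summed neutrophil marker level was 63.7 CPM (reads of a gene relative to the scaled library size), against 6.48 to 14.2 CPM in the other 3 CLP+DCA livers, 32.5 to 47.7 CPM in CLP and 6.33 to 9.08 CPM in sham livers. Its summed cholangiocyte marker level was 213 CPM, against 34.4 to 96.3 CPM in the other 11 livers. Its hepatocyte marker sum was the lowest of the 12, at 30210 CPM. The counts of calls and the list medians that rest on it are therefore given with and without it. Hepatocyte markers led every library and the sum was lower after CLP (61390 to 83570 CPM in sham, 32890 to 46350 CPM in CLP livers, 30210 to 57560 CPM in CLP+DCA livers). Of the 8 hepatocyte markers 7 could be tested, 1 of them was called lower in CLP and 2 had higher estimates. Of 10 tested neutrophil markers 1 was called higher. Of the 6 erythroid markers the 4 hemoglobin genes are listed at 0 in every liver, so the share of blood in each sample was not measured. The others, mostly Alas2, summed to 78.8 to 87.3 CPM in sham, 33.5 to 57.1 CPM in CLP and 22.8 to 84.6 CPM in CLP+DCA livers, lowest in CLP+DCA replicate 3, and the 1 tested was not called. Of 9 endothelial markers 1 was called higher in CLP, and their sum was 143 to 185 CPM in sham, 184 to 220 CPM in CLP and 145 to 211 CPM in CLP+DCA livers. Kupffer cell markers summed to 207 to 346 CPM in sham, 323 to 414 CPM in CLP and 268 to 520 CPM in CLP+DCA livers. The part of these shifts in the results below was not tested. In whole liver, fewer cells of a type and less RNA per cell cannot be told apart.

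Values are in CPM, with library sizes scaled by edgeR's TMM factors, with mean ± SD over n = 4 mice. Fold changes, standard errors (SE) and adjusted p-values are from edgeR's quasi-likelihood test fitted on all 12 mice over 13190 genes, with Benjamini-Hochberg adjustment over all of them and a threshold of 0.05. Replicates are separate animals. The comparisons with sham share the sham mice, and those with CLP share the CLP mice, so they are not independent of one another.

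After CLP, 1 of the 9 fitted genes passed the test: Gclc, which encodes the catalytic subunit of the enzyme that makes the first step of glutathione synthesis, fell. Over all genes, 2.78% passed in either direction, 1.64% as higher and 1.14% as lower. Estimates were lower than sham for 7 genes and higher for 2, Hmox1 and Srxn1, and the median was -0.25 on the log2 scale against 0.02 over all genes tested. Groups did not overlap for 2 genes, Nfe2l2 and Gclc, both lower, where 14.2% of all genes had every CLP mouse below every sham mouse. Without CLP+DCA replicate 3, where all 9 standard errors were smaller, 3 of the 9 passed: Gclc and Nfe2l2 lower and Hmox1 higher. In that fit 23.8% of all genes passed, 12.2% as higher and 11.5% as lower.

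**Figure D1:**
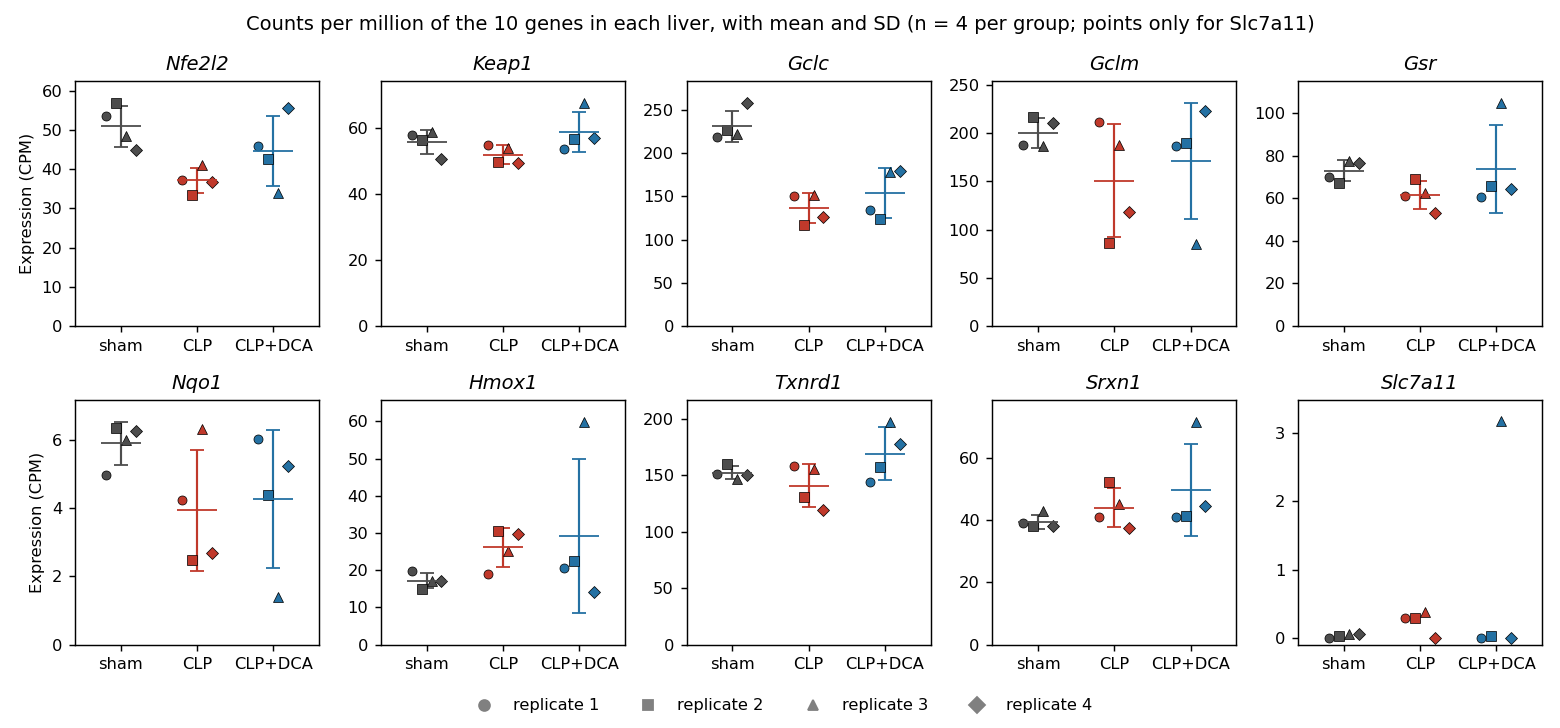
Expression of the 10 genes in CPM (vertical axis, starting at 0; Slc7a11 slightly below) in sham (grey), CLP (red) and CLP+DCA (blue) livers. Each symbol is a mouse, shaped by its replicate number; the long dash and bars are the mean and SD of n = 4. Gclc is lower in all 8 punctured mice than in every sham mouse, and CLP+DCA replicate 3 (triangle) is far from its group for Hmox1, Gsr, Srxn1, Slc7a11, Gclm and Nqo1.

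Nfe2l2 (gene ID 18024; chromosome 2, 75675513 to 75704663 on mm10, minus strand) was read at 53.6, 56.8, 48.5 and 44.8 CPM in sham mice 1 to 4. In CLP mice 1 to 4 it was at 37.2, 33.5, 41.2 and 36.9 CPM. In CLP+DCA mice 1 to 4 it was at 46.0, 42.7, 34.1 and 55.7 CPM. Every CLP liver lay below every sham liver, and the CLP+DCA livers ranged from the CLP level to the upper sham level, with replicate 3 the lowest of them. Means were 50.9 ± 5.34, 37.2 ± 3.14 and 44.6 ± 8.93 CPM. The CLP estimate was 27.0% below sham (log2 fold change -0.45, SE 0.14) with an edgeR adjusted p of 0.0756, which did not pass. The same estimate without CLP+DCA replicate 3 had an SE of 0.11 and an adjusted p of 0.0133 by edgeR.

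Keap1 (gene ID 50868; chromosome 9, 21229730 to 21239332), the adaptor that targets NRF2 for degradation, was at 57.9, 56.4, 58.8 and 50.6 CPM in sham mice. In CLP mice it was at 55.0, 49.6, 54.0 and 49.4 CPM, and in CLP+DCA mice at 53.8, 56.9, 67.6 and 57.1 CPM. The ranges of the 3 groups overlapped, with CLP+DCA replicate 3 the highest of the 12. Its log2 fold change in CLP was -0.10 (SE 0.09, edgeR adjusted p = 0.434, and 0.306 without CLP+DCA replicate 3).

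The ratio of Nfe2l2 to Keap1 within a liver does not depend on the scaling between livers. It was 0.927, 1.01, 0.824 and 0.886 in sham mice and 0.678, 0.675, 0.763 and 0.746 in CLP mice. CLP+DCA mice had ratios of 0.855, 0.751, 0.504 and 0.974. Sham and CLP did not overlap, while CLP+DCA spanned both and went below them at replicate 3. On the log2 scale the difference of CLP from sham was -0.35 (4 mice each, two-sided exact permutation p = 0.0286, the smallest that 4 against 4 allows). With adjustment over the 12 ratio tests made the exact p was 0.343. In CLP+DCA the log2 ratio was -0.42 ± 0.41, and its difference from CLP was 0.07 (exact p = 0.829), or 0.26 without replicate 3.

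The glutamate-cysteine ligase has a catalytic subunit, Gclc, and a modifier subunit, Gclm. Gclc (gene ID 14629; chromosome 9, 77754535 to 77794489) was at 218, 227, 222 and 257 CPM in sham mice and at 151, 117, 151 and 126 CPM in CLP mice. CLP+DCA mice had 134, 124, 178 and 179 CPM. All 8 punctured mice were below all 4 sham mice, and the ranges of CLP and CLP+DCA overlapped. Gclc fell by 41.0% in CLP (log2 fold change -0.76, SE 0.15, edgeR adjusted p = 0.0295, and 0.00468 without CLP+DCA replicate 3). This call was lost when sham mouse 1, 2, 3 or 4 or CLP mouse 1, 2 or 4 was left out. Over the 12 fits with a mouse left out, estimates ran from -0.82 to -0.70 and edgeR adjusted p reached 0.104. Over all genes these fits called 10 to 3157 genes, against 367 with all 12 mice.

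Gclm (gene ID 14630; chromosome 3, 122245557 to 122267215) was at 188, 217, 187 and 211 CPM in sham mice. In CLP mice it was at 211, 86.2, 188 and 118 CPM, and in CLP+DCA mice at 187, 189, 84.9 and 223 CPM. CLP mice 1 and 3 were in the sham range and CLP mice 2 and 4 far below it, as was CLP+DCA replicate 3. The log2 fold change in CLP was -0.41 (SE 0.31, edgeR adjusted p = 0.379, and 0.207 without CLP+DCA replicate 3).

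The subunits therefore did not keep 1 proportion. The ratio of Gclc to Gclm was 1.16, 1.05, 1.19 and 1.22 in sham mice and 0.714, 1.36, 0.803 and 1.07 in CLP mice. In CLP+DCA mice it was 0.717, 0.655, 2.1 and 0.801. Sham values were close together (log2 SD 0.10) and the CLP and CLP+DCA values were spread (log2 SD 0.42 and 0.78). No comparison of this ratio passed (exact permutation p = 0.314 for CLP against sham and 0.571 for CLP+DCA against sham, 4 mice each). Without CLP+DCA replicate 3, the 3 other CLP+DCA livers were all below the sham range and the log2 difference from sham was -0.68.

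Gsr (gene ID 14782; chromosome 8, 33653238 to 33698162) encodes glutathione reductase, which returns oxidized glutathione to its reduced form with NADPH. It was at 70.1, 67.2, 77.2 and 76.7 CPM in sham mice and at 61.1, 69.1, 62.4 and 52.9 CPM in CLP mice. In CLP+DCA mice it was at 60.4, 65.6, 105 and 64.4 CPM. The CLP range reached into the sham range through mouse 2, and CLP+DCA replicate 3 was the highest of the 12. In CLP the log2 fold change was -0.25 (SE 0.16, edgeR adjusted p = 0.316, and 0.0657 without CLP+DCA replicate 3).

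Slc7a11 (gene ID 26570; chromosome 3, 50364936 to 50443613) encodes the cystine carrier of system xc-, which brings in the cystine from which cells make glutathione. Sham mice had 0, 1, 2 and 2 reads, CLP mice 13, 6, 16 and 0, and CLP+DCA mice 0, 1, 117 and 0. In CPM the CLP+DCA replicate 3 value was 3.17, and a count of 3 reads corresponds to 0.0691 to 0.144 CPM in these libraries. Of the 12 livers only CLP mice 1, 2 and 3 and CLP+DCA replicate 3 were above 3 reads, and the groups overlapped. The difference of log2 CPM in CLP from sham was 1.38 (exact permutation p = 0.143, 4 mice each), and it was 2.04 without CLP mouse 4. CLP+DCA differed from sham by 0.98 (exact permutation p = 0.886, 4 mice each), and by -0.40 without replicate 3. Slc3a2, the heavy chain that Slc7a11 pairs with, was measured at 27.8 to 32.5 CPM in sham, 31.8 to 44.9 CPM in CLP and 34.9 to 80.2 CPM in CLP+DCA livers, with replicate 3 at the top.

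Txnrd1 (gene ID 50493; chromosome 10, 82833951 to 82897724) encodes the cytosolic thioredoxin reductase. It was at 151, 160, 147 and 150 CPM in sham mice, at 159, 130, 155 and 119 CPM in CLP mice and at 144, 157, 197 and 178 CPM in CLP+DCA mice. CLP mice 2 and 4 were below all sham mice, and CLP+DCA replicates 3 and 4 were above them. Its log2 fold change in CLP was -0.11 (SE 0.12, edgeR adjusted p = 0.561, and 0.475 without CLP+DCA replicate 3).

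Srxn1 (gene ID 76650; chromosome 2, 152105524 to 152111376) encodes sulfiredoxin, which repairs overoxidized peroxiredoxins. It was at 39.2, 38.2, 42.9 and 38.0 CPM in sham mice and at 41.1, 52.1, 45.1 and 37.5 CPM in CLP mice. In CLP+DCA mice it was at 41.0, 41.5, 71.7 and 44.4 CPM. The sham and CLP ranges overlapped, and CLP+DCA replicate 3 was the highest of the 12. The log2 fold change in CLP was 0.15 (SE 0.17, edgeR adjusted p = 0.561, and 0.257 without CLP+DCA replicate 3), and it was -0.02 when reads were scaled by library size alone.

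Nqo1 (gene ID 18104; chromosome 8, 107388225 to 107403205) encodes the quinone reductase most often used as a marker of NRF2 activity. It was low in these livers, at 4.98, 6.36, 6.02 and 6.26 CPM in sham mice and at 4.24, 2.49, 6.33 and 2.69 CPM in CLP mice. In CLP+DCA mice it was at 6.03, 4.40, 1.41 and 5.25 CPM. CLP mouse 3 was in the sham range and the other CLP mice below it, and CLP+DCA replicate 3 was the lowest of the 12. The log2 fold change in CLP was -0.57 (SE 0.39, edgeR adjusted p = 0.337, and 0.123 without CLP+DCA replicate 3).

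Hmox1 (gene ID 15368; chromosome 8, 75093618 to 75100593) encodes the inducible heme oxygenase, which breaks heme into iron, carbon monoxide and biliverdin. NRF2 drives it once the repressor BACH1 has left its promoter. It was at 19.7, 14.8, 17.0 and 17.0 CPM in sham mice and at 19.0, 30.6, 25.2 and 29.7 CPM in CLP mice. In CLP+DCA mice it was at 20.7, 22.5, 59.9 and 14.1 CPM. CLP mice 2, 3 and 4 were above all sham mice and CLP mouse 1 was within the sham range. CLP+DCA held both the lowest and the highest value of the 12 livers. The log2 fold change in CLP was 0.61 (SE 0.37, edgeR adjusted p = 0.281). It was 0.61 (SE 0.17, edgeR adjusted p = 0.0285) without CLP+DCA replicate 3.

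Hmox2, the constitutive heme oxygenase, whose reads cannot be told from those of Cdip1 on the other strand, rose in CLP to 37.0 ± 1.34 CPM from 29.1 ± 1.46 CPM in sham livers (log2 fold change 0.34, edgeR adjusted p = 0.039). The Hmox1 to Hmox2 ratio was 0.533 to 0.636 in sham mice, 0.536 to 0.805 in CLP mice and 0.435, 0.561, 0.643 and 1.90 in CLP+DCA mice. CLP+DCA replicate 3 had the highest ratio of the 12. The log2 ratio in CLP differed from sham by 0.25 (exact permutation p = 0.143, 4 mice each).

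**Figure D2:**
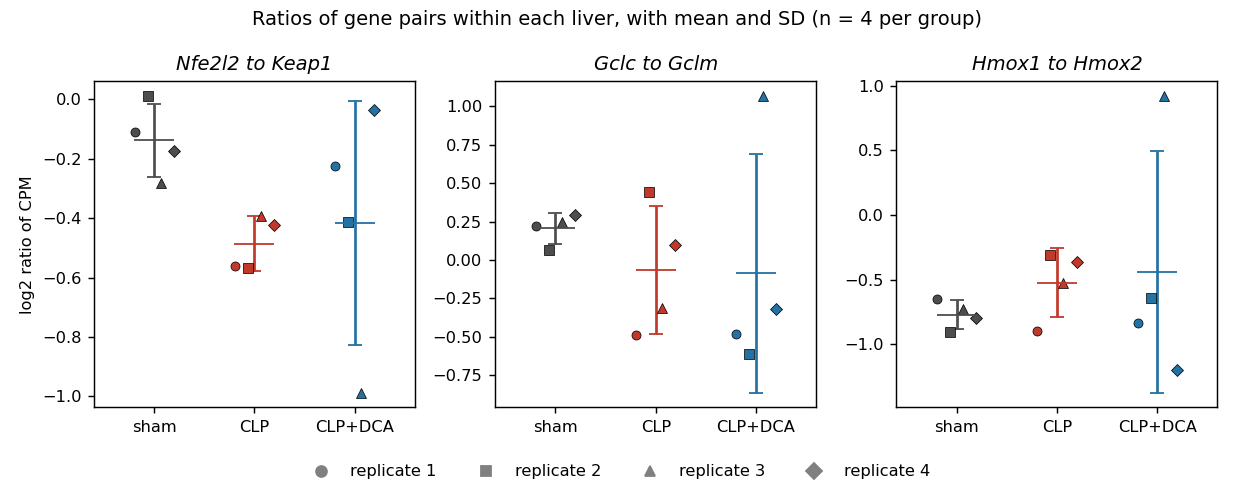
log2 ratio of CPM (vertical axis) of Nfe2l2 to Keap1, Gclc to Gclm and Hmox1 to Hmox2 within each liver. Symbols are mice, shaped by replicate number, with mean and SD of n = 4. The CLP ratios of Nfe2l2 to Keap1 lie below all sham ratios, and CLP+DCA replicate 3 (triangle) lies outside the other 11 livers in all 3 panels.

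Within CLP the 4 mice did not move alike. CLP mice 2 and 4 had the lowest Gclm, Nqo1, Gclc and Txnrd1 and the highest Hmox1 of the group. CLP mice 1 and 3 had Gclm and Txnrd1 at sham levels, with Gclc below sham. The 2 CLP libraries with low Gclm were also the smallest of the 12 or close to it, at 24436513 and 25683615 reads. CLP mice 1 and 3 had 44266819 and 39686029 reads. Sham mouse 1 had 25442410 reads with Gclm at 188 CPM, and CLP+DCA replicate 3 had 40251177 reads with Gclm at 84.9 CPM. The part of depth in the Gclm values was not tested. The summed reads of the 10 genes were 0.0488% and 0.0496% of all reads in CLP mice 2 and 4. They were 0.0724% and 0.0760% in CLP mice 1 and 3, 0.0848% to 0.0903% in sham mice and 0.0722% to 0.0846% in CLP+DCA mice. These shares are of unscaled reads. CLP mice 2 and 4 had the lowest TMM factors of the 12, at 0.855 and 0.867, against 1.03 to 1.07 in sham mice. The part of this scaling in the shares was not tested.

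**Figure D3:**
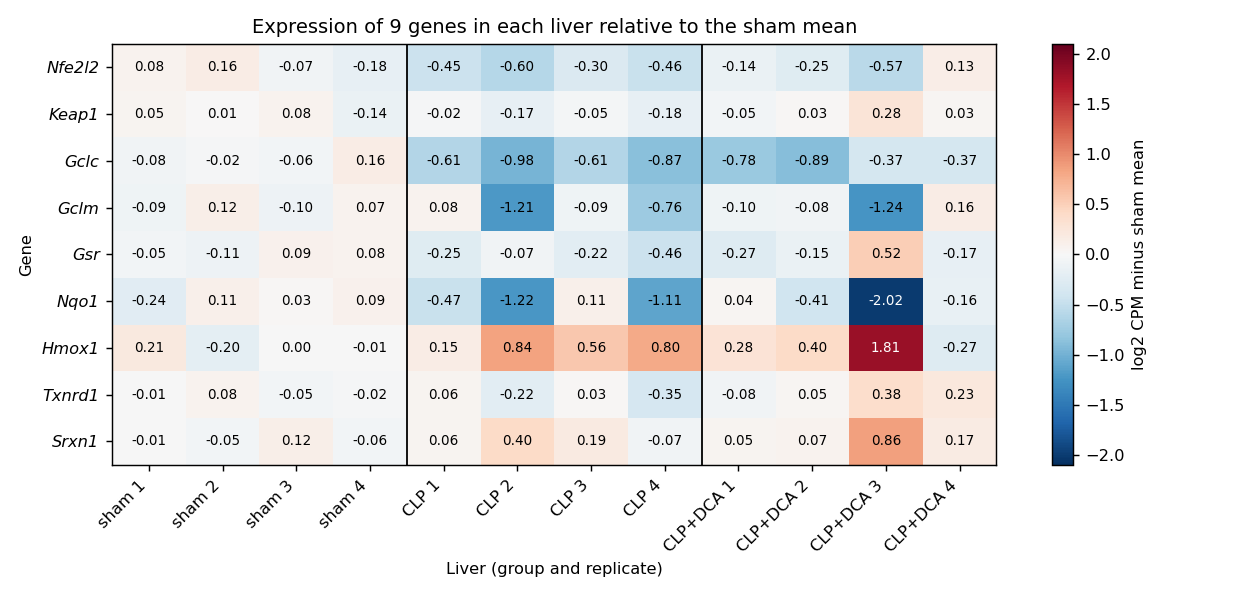
log2 CPM of the 9 fitted genes in each liver minus the sham mean of the gene, printed in each cell and coloured from blue (lower) to red (higher). Columns are the 12 mice and rows the genes. CLP replicates 2 and 4 and CLP+DCA replicate 3 have low Gclm and Nqo1 beside raised Hmox1, and CLP+DCA replicate 3 has the highest Gsr (0.52), Keap1 (0.28) and Srxn1 (0.86).

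Per kilobase of exon, Gclc had the highest level of the 10 in sham livers, at 67.5 CPM per kb (range 63.7 to 75.2). Txnrd1 at 37.4 (36.1 to 39.4) and Gclm at 35.9 (33.4 to 38.8) followed and overlapped. Gsr came next at 27.2 (25.1 to 28.9), below both, and Nfe2l2 at 20.6 (18.1 to 23.0). Srxn1 at 14.1 (13.5 to 15.2) was above Keap1 at 12.4 (11.3 to 13.1), which overlapped Hmox1 at 10.9 (9.45 to 12.6). Nqo1 was at 3.804 (3.21 to 4.10) and Slc7a11 at 0.00363 CPM per kb. In CLP livers Gclc at 39.8 (34.2 to 44.1) overlapped Txnrd1 at 34.6 (29.2 to 38.9), and Gclm ran from 15.4 to 37.8. Gsr followed at 23.0 (19.8 to 25.9). Hmox1, at 16.6 (12.1 to 19.5), overlapped Srxn1 at 15.6 (13.4 to 18.5) and Nfe2l2 at 15.03 (13.5 to 16.6), with Keap1 below these last 2 at 11.6 (10.99 to 12.2) and Nqo1 at 2.54 (1.603 to 4.08). In CLP+DCA livers Gclc at 44.9 (36.2 to 52.2) and Txnrd1 at 41.5 (35.4 to 48.4) again overlapped, and Hmox1 ran from 8.98 to 38.2 CPM per kb. The Hmox1 range overlapped that of Gsr and spanned those of Nfe2l2, Srxn1 and Keap1. Its upper end was replicate 3, with the next CLP+DCA liver at 14.3 CPM per kb.

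In CLP+DCA against sham, none of the 9 genes passed the edgeR test, and 0.0379% of all genes did. At an unadjusted p under 0.05, 1714 of the 13190 genes passed (13%), among them 1 of the 9, Gclc. Gclc was the gene whose groups did not overlap, lower in all 4 mice, where 4.97% of all genes had every CLP+DCA mouse below every sham mouse. Its log2 fold change was -0.59 (SE 0.15, edgeR adjusted p = 0.23), and -0.66 with an adjusted p of 0.16 without replicate 3, a fit in which 0.0828% of all genes passed. DESeq2 on all 12 mice and on the 8 compared, and voom, each called Gclc and no other of the 9 in this comparison. Over all genes these settings called 243, 169 and 496 genes, against 5 in the edgeR fit of all 12 mice. The estimates for the 9 genes were higher for 5 and lower for 4, with a median of 0.02 against 0.01 over all genes.

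Hmox1 had the largest estimate, 0.78 (SE 0.37, edgeR adjusted p = 0.395), and it was 0.16 (SE 0.19) without replicate 3. Srxn1 went from 0.33 (SE 0.17) to 0.10 (SE 0.10) without it, and Gsr from 0.02 (SE 0.16) to -0.20 (SE 0.10). Gclm went from -0.23 (SE 0.31) to 0.00 (SE 0.25) and Nqo1 from -0.47 (SE 0.39) to -0.18 (SE 0.27). Nfe2l2 was at -0.19 (SE 0.14) with it and -0.08 (SE 0.11) without it. Keap1 (0.07, SE 0.09) and Txnrd1 (0.15, SE 0.12) had small estimates in both fits, at 0.00 and 0.07 without replicate 3. So 7 of these 8 estimates were nearer to 0 in the fit without that liver, Gsr being the exception.

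In CLP+DCA against CLP, which asks what DCA changed in septic livers, none of the 9 genes passed the edgeR test, and 0.00758% of all genes did. At an unadjusted p under 0.05, 1319 genes passed (10%) and none of the 9. No gene of the 9 had groups apart, against 4.37% of all genes. All 9 estimates were higher with DCA, with a median of 0.18 against 0.01 over all genes. Without replicate 3, 7 were higher and Hmox1 and Srxn1 lower, with none past the test, where 4.64% of all genes passed, 2.01% as higher and 2.63% as lower.

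The estimates were 0.26 for Nfe2l2 (SE 0.14, edgeR adjusted p = 0.548), 0.18 for Keap1 (SE 0.09), 0.17 for Gclc (SE 0.14) and 0.18 for Gclm (SE 0.31). Nfe2l2 went to 0.37 (SE 0.11, edgeR adjusted p = 0.0717) without replicate 3, with all 3 of the other livers, at 42.7 to 55.7 CPM, above all CLP livers, at 33.5 to 41.2 CPM. Gclm went to 0.41 (SE 0.25) and Gclc to 0.10 (SE 0.14). Hmox1 turned from 0.17 (SE 0.36) to -0.45 (SE 0.19, edgeR adjusted p = 0.146). Srxn1 turned from 0.17 (SE 0.17) to -0.06 (SE 0.10). Gsr (0.27, SE 0.16) and Nqo1 (0.10, SE 0.39) went to 0.05 (SE 0.10) and 0.38 (SE 0.27), and Txnrd1 from 0.26 (SE 0.12) to 0.18 (SE 0.12).

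**Figure D4:**
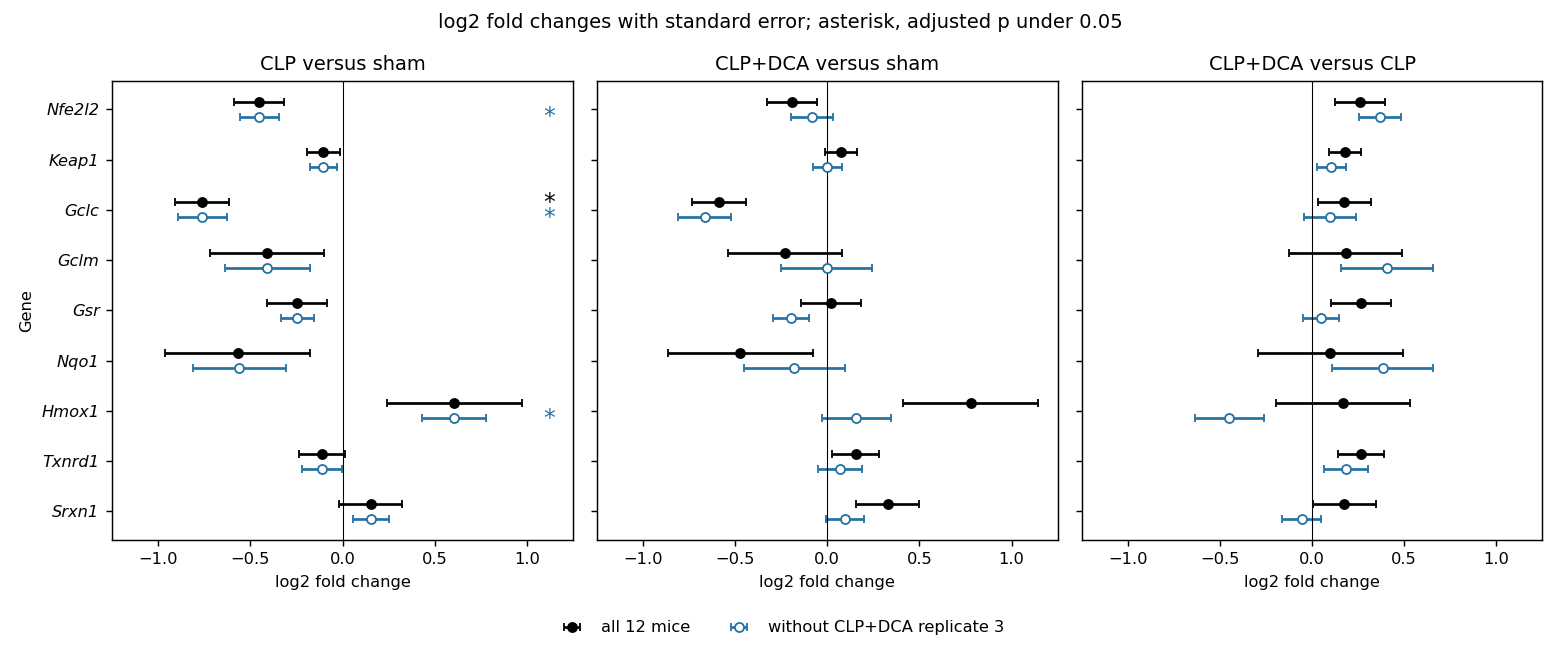
log2 fold change (horizontal axis) of the 9 fitted genes in the 3 comparisons, with standard errors as bars. Filled black points are from all 12 mice and open blue points from the fit without CLP+DCA replicate 3; an asterisk of the same colour at the right marks an edgeR adjusted p under 0.05. Gclc passes in CLP against sham in both fits, Nfe2l2 and Hmox1 only without that liver, and no gene in the other comparisons.

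In CLP+DCA replicate 3 the 10 genes split. Hmox1, Srxn1, Gsr, Keap1, Txnrd1 and Slc7a11 had the highest value of the 12 livers there, and Gclm and Nqo1 the lowest. Nfe2l2 was the second lowest after CLP mouse 2, and Gclc was the second highest of the 8 punctured livers. Relative to the sham mean, Hmox1 was at 1.81, Srxn1 at 0.86 and Gsr at 0.52 on the log2 scale, against -2.02 for Nqo1 and -1.24 for Gclm. This is 1 liver, so no test of the split was possible.

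The other genes of the pathway were read from 7 lists, which share genes. Chac1 is counted in both the glutathione and the ATF4 list, and Sesn2 in both the thioredoxin and the ATF4 list. Chac1 is among the genes called higher in CLP in both of its lists when CLP+DCA replicate 3 is left out (edgeR adjusted p = 0.0451). Of 16 partners and regulators of NRF2 (small MAF proteins, BACH1 and BACH2, the relatives NFE2L1 and NFE2L3, and the ligases and kinases that act on NRF2), none passed in CLP, with 7 estimates higher and 9 lower and a median of -0.02. The smallest p-values were those of Nfe2l1, at 138 ± 21.0 CPM in sham and 181 ± 22.5 CPM in CLP livers, and Syvn1, a ligase reported to act on NRF2, at 96.7 ± 9.57 and 180 ± 78.5 CPM. Both had an edgeR adjusted p of 0.0868. Syvn1 overlaps Mrpl49 on the other strand, so their reads cannot be told apart there. With CLP+DCA replicate 3 left out, 3 of the 16 passed as higher and 1 as lower, where 12.2% of all genes passed as higher and 11.5% as lower.

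Of 17 genes for the supply and use of glutathione, 15 could be fitted (not Ggt1 and Gpx2), and none passed in CLP. There were 6 higher and 9 lower estimates with a median of -0.16. Mat1a, the liver S-adenosylmethionine synthase, was at 4049 ± 832 CPM in sham and 6520 ± 1000 CPM in CLP livers (log2 fold change 0.69, edgeR adjusted p = 0.0534). Gls2, the liver glutaminase, was at 420 ± 142 and 192 ± 26.2 CPM (-1.13, edgeR adjusted p = 0.0765), and it overlaps Spryd4 on the other strand. Leaving out CLP+DCA replicate 3, 2 of the 15 passed as higher and 4 as lower, beside 12.2% and 11.5% of all genes.

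Of 13 thioredoxin and peroxiredoxin genes none passed in CLP, with 3 estimates higher and 10 lower and a median of -0.22. Txnrd3, a further thioredoxin reductase, was at 8.93 ± 0.636 CPM in sham and 6.47 ± 1.11 CPM in CLP livers (edgeR adjusted p = 0.0702), and all CLP livers were below all sham livers. In the fit without CLP+DCA replicate 3, 6 of the 13 passed, all lower, where 11.5% of all genes passed as lower.

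Of 13 heme and iron genes around HMOX1, 3 passed as higher and none as lower in CLP in the fit of all 12 mice, where 1.64% of all genes passed as higher. Hp, which encodes haptoglobin, the carrier of free hemoglobin, rose from 12600 ± 954 to 32260 ± 9620 CPM (log2 fold change 1.36, edgeR adjusted p = 0.039). Hpx, which encodes hemopexin, the carrier of free heme, rose from 14150 ± 1080 to 44310 ± 16500 CPM (1.65, edgeR adjusted p = 0.0426). The third was Hmox2, at 31.0, 27.8, 28.1 and 29.5 CPM in sham mice and 35.4, 38.0, 36.3 and 38.2 CPM in CLP mice. In CLP+DCA replicate 3, Hp was at 33440 CPM and Hpx at 54950 CPM, the highest of that group. Hp and Hpx are also acute-phase proteins of the liver. The remaining 10 genes gave 2 higher and 8 lower estimates, and the median of the list was -0.13. Without CLP+DCA replicate 3, 4 of the 13 passed as higher (the same 3 and Flvcr1, a heme exporter) and 2 as lower, beside 12.2% and 11.5% of all genes. The 2 were Fech, the last enzyme of heme synthesis, and Ftl1, the ferritin light chain (edgeR adjusted p = 0.011 and 0.00775).

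Of 6 NADPH-supplying genes 1 passed as lower and none as higher in CLP in the fit of all 12 mice, where 1.14% of all genes passed as lower. Tkt, the transketolase of the pentose phosphate pathway, fell from 88.3 ± 8.23 to 53.3 ± 4.15 CPM (log2 fold change -0.73, edgeR adjusted p = 0.0201). In CLP+DCA livers it was at 66.2, 63.0, 50.7 and 69.2 CPM, so replicate 3 was within the CLP range (47.9 to 56.9 CPM) and the other 3 lay between it and the lowest sham mouse, at 79.3 CPM. Without CLP+DCA replicate 3, Tkt and Idh1, the cytosolic isocitrate dehydrogenase, passed as lower (edgeR adjusted p = 0.00112 and 0.0178) and G6pdx, the entry enzyme of the pentose phosphate pathway, as higher (edgeR adjusted p = 0.0166), beside 11.5% and 12.2% of all genes.

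The 23 genes of conjugation and transport held the largest shifts. Of the 22 fitted (not Gsta1), 2 passed as lower in CLP and none as higher in the fit of all 12 mice, where 1.14% of all genes passed as lower. There were 21 lower estimates and 1 higher, and the median was -0.70 against 0.02 over all genes. Gsta2, a glutathione S-transferase, fell from 4.24, 5.001, 7.85 and 12.99 CPM in sham mice to 0.438, 0, 0.750 and 0.0449 CPM in CLP mice (log2 fold change -4.40, edgeR adjusted p = 0.0412). CLP+DCA mice had 1.98, 2.49, 0.0542 and 2.16 CPM, so all of them were below the sham range and 3 of them above the CLP range. Gsta4, which conjugates lipid aldehydes, fell from 19.8 ± 5.55 to 2.34 ± 2.20 CPM (-3.02, edgeR adjusted p = 0.0472), and CLP+DCA mice had 8.94, 10.99, 1.16 and 10.5 CPM. Gsta2 has near-identical relatives in the genome, so its reads may be split among them. The fit without CLP+DCA replicate 3 called 10 of the 22, all lower, where 11.5% of all genes passed as lower. Against sham, 21 of the 22 estimates in CLP+DCA were lower as well, with a median of -0.48 (-0.335 without CLP+DCA replicate 3) and none past the test.

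The calls of these 6 genes (Hmox2, Hp, Hpx, Tkt, Gsta2 and Gsta4) depended on single mice. Each of them was lost without sham mouse 1, 2 or 3 or CLP mouse 2 or 4, where edgeR adjusted p reached at most 0.125. All but Tkt were also lost without sham mouse 4, CLP mouse 1 or CLP+DCA mouse 1, and Hp, Hpx, Gsta2 and Gsta4 without CLP+DCA mouse 2. Their directions held in all 12 of these fits. Over all genes the same fits called 10 to 3157 genes, against 367 with all 12 mice, so lost calls were not particular to these 6 genes.

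ATF4, the transcription factor of the amino acid and unfolded protein responses, also drives Slc7a11, and ATF4 itself and 11 of its targets were therefore listed. None passed in CLP, with 11 estimates higher and 1 lower and a median of 0.42. Psat1, of serine synthesis, was at 0.627 ± 0.134 CPM in sham and 5.06 ± 4.40 CPM in CLP livers (edgeR adjusted p = 0.119). Asns, asparagine synthetase, was at 6.26 ± 4.50 and 24.9 ± 14.2 CPM (edgeR adjusted p = 0.127). In CLP+DCA replicate 3, the liver with 117 Slc7a11 reads, Psat1 was at 19.1 CPM and Asns at 43.3 CPM. The lowest CLP+DCA livers had 0.413 and 4.55 CPM. CLP mouse 2, with 6 Slc7a11 reads, had Psat1 at 11.5 CPM and Asns at 44 CPM, so high Asns was not particular to CLP+DCA replicate 3. The median of the list in CLP+DCA against sham was 0.91 with CLP+DCA replicate 3 and 0.11 without it, when 8 estimates were higher and 4 lower, and none passed in either fit. Without that liver, 4 of the 12 passed as higher in CLP, where 12.2% of all genes did, and 2 passed as lower in CLP+DCA than in CLP, where 2.63% of all genes did.

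**Figure D5:**
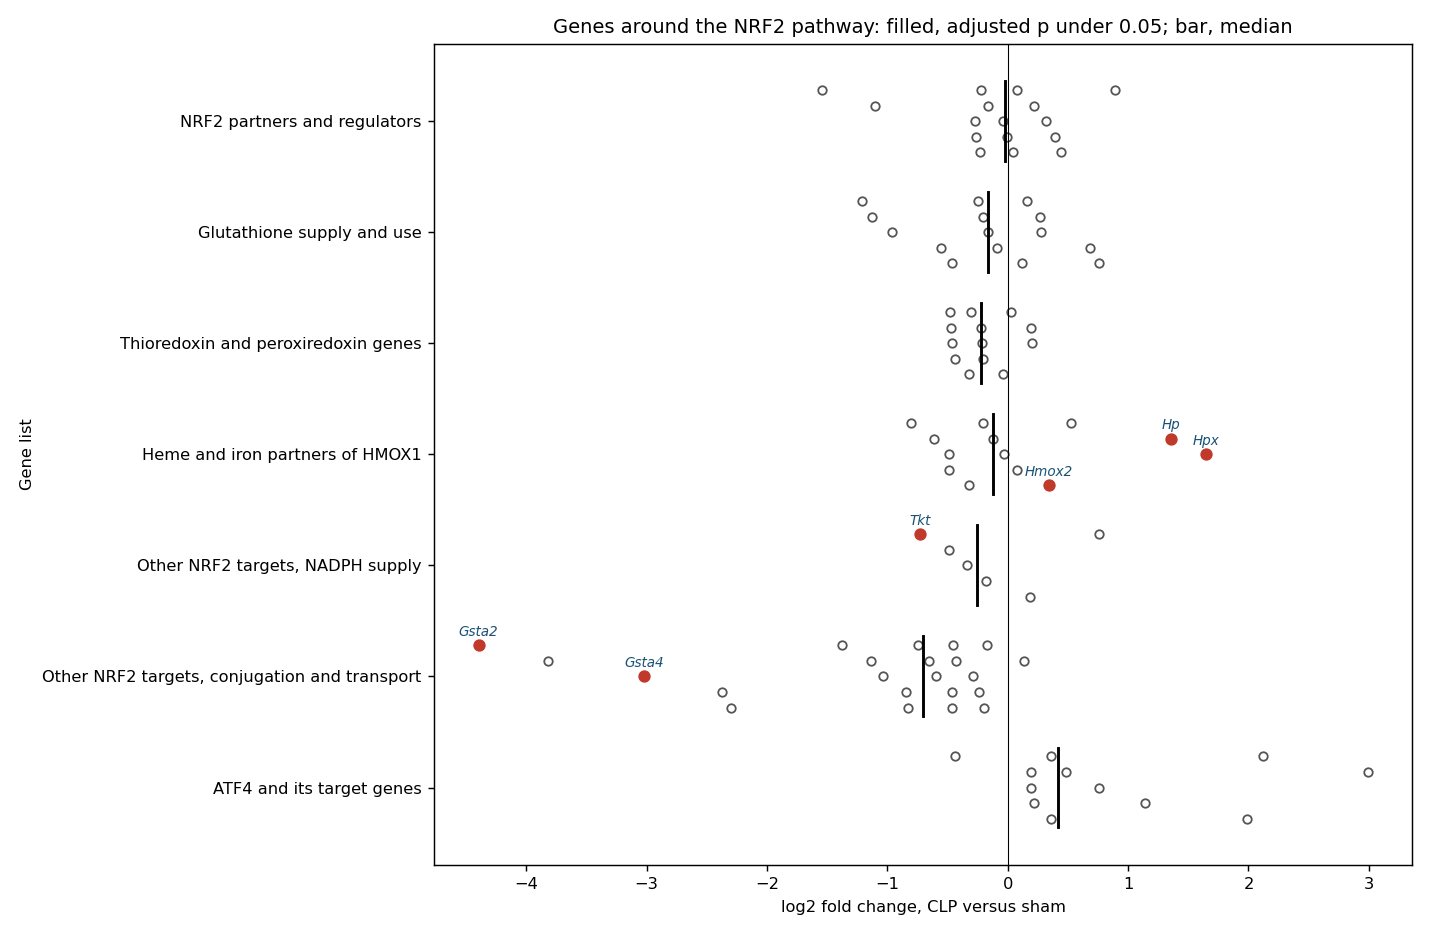
log2 fold change in CLP against sham (horizontal axis) of each fitted gene in the 7 lists (vertical axis; points are staggered for legibility). Filled red points passed the edgeR test (adjusted p under 0.05) and are named, open points did not, and the black bar is the median of the list. The conjugation and transport genes lie mostly below 0, with Gsta2 at -4.40, and 11 of the 12 genes of the ATF4 list lie above 0.

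In the comparisons with CLP+DCA in the fit of all 12 mice, no gene of the 7 lists passed. Without CLP+DCA replicate 3, 2 of the 15 glutathione genes and 1 of the 13 heme and iron genes passed as higher in CLP+DCA than in CLP, where 2.01% of all genes did.

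The genes whose pattern over the 12 livers was most like that of Nfe2l2 were found by the root mean square difference of log2 CPM, each gene scaled to mean 0 and SD 1, among 13189 genes. The 5 nearest were Mme (0.299), Ppara (0.305), Nars2 (0.308), Gbp10 (0.31) and Sgpp1 (0.313). Ppara, which encodes the receptor that drives fatty acid oxidation, was at 334 ± 58.0 CPM in sham, 188 ± 47.6 CPM in CLP and 247 ± 98.4 CPM in CLP+DCA livers. Of the other fitted members, Gclm came nearest at place 1510, then Nqo1 at 1638 and Gclc at 2853. Txnrd1 was at place 5422, Keap1 at 5760, Gsr at 7174, Srxn1 at 9853 and Hmox1 at 12212. Without CLP+DCA replicate 3 the 5 nearest were Ubp1, Pm20d1, Fnip2, Tmem184a and Gas1, and the former 5 were at places 10 to 16. Keap1 then moved to place 1824 and Txnrd1 to 2425, while Hmox1 stayed near the end at 12674. These distances describe the same 12 livers in which the group levels were read, and they say nothing of shared control.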

How the data were processed

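Per the labels and the methods of the study, total RNA from whole liver was made into TruSeq v2 libraries, which do not mark strand, enriched for polyadenylated RNA and sequenced. The authors aligned the reads to mm10 and deposited raw counts of reads per gene, 1 table for the 12 mice; their processing notes name STAR 2.5, featureCounts of Subread 1.5.0-p1 and DESeq2. The gene annotation and the strand setting are not given in the sources used here. Genes overlapping on opposite strands share reads that cannot be told apart, as for Hmox2 with Cdip1, Syvn1 with Mrpl49 and Gls2 with Spryd4.

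From the deposited counts, genes were kept by edgeR's filterByExpr (minimum count 10), scaled by TMM (CPM are reads over the scaled library size) and fitted with edgeR 4.0.16 (R 4.3.3, robust quasi-likelihood, 1 model of the 12 mice) at a Benjamini-Hochberg threshold of 0.05 over all genes tested. DESeq2 1.42.0 and voom (limma 3.58.1) were alternatives. Ratios and Slc7a11 were taken on the log2 scale of CPM, adding 2 prior reads, and tested by two-sided exact permutation over mice. CPM per kb used the exon union of GENCODE M21. On simulated counts for CLP against sham, 195 of 200 changed genes were recovered among 13079 genes, with 17 wrong calls. The simulated spread between mice was capped and no outlying liver was simulated, so these counts do not measure recovery in the real fit. Recovery at the fold changes estimated for the NRF2 pathway genes was not tested. The standard errors are from the edgeR fit and include the spread between mice.

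The members and the gene lists were chosen with earlier results of these data known. The text names all members, list genes past the threshold in any comparison (otherwise the 2 with the smallest p in CLP against sham) and the 5 genes most like Nfe2l2; the values of 1 gene of the thioredoxin list are not reported here. Replicate numbers were taken from the labels. They did not pair the mice: of 12 correlations between same-numbered mice of different groups (-0.459 to 0.55), 1 was over 0.1.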

Additional observations from a re-analysis of the deposited data

Results flagged for a closer look

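In 42 groups of 4 values tested by Dixon's gap (critical value 0.829, which chance passes in about 1 group in 20), 4 held a value far from its group, and all 4 came from CLP+DCA replicate 3. Gsr was at 104.5 CPM there, with the nearest other CLP+DCA liver at 65.6 CPM. Srxn1 was at 71.7 CPM, with the nearest at 44.4 CPM. Slc7a11 was at 3.17 CPM, with the nearest at 0.0336 CPM. The log2 ratio of Slc7a11 to Slc3a2 was -4.63, with the nearest at -8.57, a value that rests on 1 read.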

How the results depend on the processing

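The directions of most estimates were kept: of the 243 member estimates made under 9 other settings, 8 changed sign, 9 gained a call and 1 lost it. The count of genes called in CLP against sham, 367 in all, was 209 with library size alone (47.8% higher, against 58.9%), 122 with no filter, 1906 with DESeq2 on all 12 mice, 3422 with DESeq2 on the 8 mice compared, 2387 with edgeR on those 8, 3453 with voom, 10 at an FDR of 0.01 and 2022 at 0.1. Of the 9 genes of the pathway, 2 were called with DESeq2 on 12 mice, 3 with DESeq2 on 8, 3 with edgeR on 8, 2 with voom, 0 at an FDR of 0.01 and 2 at 0.1. In CLP+DCA against sham the 5 genes called became 3 with library size alone, 243 and 169 with DESeq2 on 12 and 8 mice, 0 with edgeR on 8, 496 with voom and 1 at an FDR of 0.01, and the members called went from 0 to 1 (Gclc) with DESeq2 on 12 and on 8 mice and with voom. In CLP+DCA against CLP the gene called became 137 and 80 with DESeq2 on 12 and 8 mice, 0 with edgeR on 8, 1341 with voom, 0 at an FDR of 0.01 and 6 at 0.1, with no member called under any setting. The cause of these differences was not tested.

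Library size alone moved the median of all genes to -0.15 in CLP against sham (from 0.02), to -0.05 in CLP+DCA against sham and to 0.12 in CLP+DCA against CLP. The calls of Hmox2, Hp, Hpx, Gsta2 and Gsta4 were lost with no filter and under the block, those of Hmox2 and Gsta4 also with library size alone, and that of Tkt under the block. With library size alone Srxn1 in CLP turned to -0.021 and Gsr in CLP+DCA against sham to -0.059. Voom turned Keap1 (-0.034), Gsr (-0.192) and Txnrd1 (-0.007) in CLP+DCA against sham, and Hmox1 (-0.217) and Srxn1 (-0.003) in CLP+DCA against CLP. edgeR without a filter put Slc7a11 at 1.669 in CLP+DCA against CLP (adjusted p = 0.687), against -0.40 on log2 CPM.

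With the replicate number as a block, a number that did not pair the mice, 46 genes were called in CLP against sham (78.3% higher), with 0 members (Gclc -0.77, edgeR adjusted p = 0.0645), 0 genes in CLP+DCA against sham and 4 in CLP+DCA against CLP. Gsr was at -0.009 in CLP+DCA against sham in that fit, and in 3 of 12 pairings a mouse correlated best with the mouse of its own number.

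Leaving out each mouse in turn gave 10 to 3157 genes and 0 to 3 members in CLP against sham, 1 to 11 genes in CLP+DCA against sham and 0 to 616 genes in CLP+DCA against CLP, with 0 members in the last 2 comparisons. The lowest count, 10, came without sham replicate 3, and the highest of each came without CLP+DCA replicate 3. Ranges that crossed 0 were -0.197 to 0.102 for Gsr in CLP+DCA against sham and, in CLP+DCA against CLP, -0.01 to 0.406 for Gclm, -0.114 to 0.425 for Nqo1, -0.449 to 0.399 for Hmox1 and -0.057 to 0.267 for Srxn1. The log2 ratios in CLP+DCA against CLP ran from -0.057 to 0.26 for Nfe2l2 to Keap1, -0.403 to 0.156 for Gclc to Gclm and -0.367 to 0.341 for Hmox1 to Hmox2. Against sham, those of CLP+DCA ran from -0.121 to 0.587 for Hmox1 to Hmox2 and -0.666 to 0.871 for Slc7a11 to Slc3a2. Slc7a11 ran from 1.081 to 2.039 in CLP against sham, -0.399 to 1.509 in CLP+DCA against sham and -1.776 to 0.132 in CLP+DCA against CLP. Slc7a11 in CLP passed an unadjusted 0.05 only without CLP replicate 4, the CLP liver with 0 reads. With 3 or 4 mice per group, a gene that misses the threshold is not shown to be unchanged. The weight of CLP+DCA replicate 3 in the spread differed by gene. In CLP against sham the SE of Hmox1 was 0.37 with it and 0.17 without it, and that of Gclc 0.15 and 0.13. Slc7a11 had 0 to 6 reads in 9 of 12 livers, which limits the precision of its estimates.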

Other observations

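2 further ratios were computed after the values had been seen and are given with no test. The ratio of Gclm to Hmox1 was 9.49 to 14.6 in sham livers. In CLP mice 1 to 4 it was 11.1, 2.81, 7.44 and 3.96, and in CLP+DCA mice 1 to 4 it was 9.03, 8.40, 1.42 and 15.8. The ratio of Gclm to Srxn1 was 4.35 to 5.67 in sham livers, 5.12, 1.65, 4.16 and 3.14 in CLP mice and 4.57, 4.56, 1.18 and 5.02 in CLP+DCA mice. In both, CLP mice 2 and 4 and CLP+DCA replicate 3 were the lowest of the 12 livers.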
